A study of Caenorhabditis elegans with 4 samples.

Results

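Molting in *Caenorhabditis elegans* replaces the cuticle, the collagenous outer coat that the epidermis secretes. Before each molt the epidermis lays down a temporary apical sheath and the next cuticle beneath the old one, and proteases then free the old coat. The genes of this process are known for transcript levels that peak once in each larval stage, and adults no longer molt.

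The 8 genes described here are *mlt-7*, *mlt-8*, *mlt-10*, *mlt-11*, *noah-1*, *noah-2*, *fbn-1* and *nas-37*. They were followed through every probe set that the array's gene table assigns to them, 15 of the 22625 on the array, on 4 Affymetrix arrays. None of the 15 carries a second gene symbol, but 6 have a suffix for sequence shared with other transcripts. On assembly WBcel235, *mlt-7*, *mlt-8* and *mlt-10* are on chromosome II, with 4 protein-coding genes between *mlt-10* and *mlt-8*. *fbn-1* is on chromosome III, *noah-2* on IV, *mlt-11* on V, *nas-37* on X and *noah-1* on I.

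Total RNA came from whole adults of 1 day, grown on OP50 bacteria, after 1 h in water or in 1 mM copper sulfate. The groups were wild-type N2 Bristol animals in water, the same strain in copper, *kgb-1(km21)* mutants in water and *kgb-1(km21)* mutants in copper, with 1 array each. KGB-1 is a JNK-type MAP kinase of the heavy metal response, and the arrays were made to find genes that copper induces through it. All probe sets are on 1 scale per array, the MAS5 signal, which can be compared between arrays but not between probe sets.

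A signal of 100 or more on any array was required for a probe set to count as measured, which 11266 of the 22548 worm probe sets and 10 of the 15 described here did. At least 1 probe set of each of the 8 genes is among the 10. The log2 ratios of 18 hybridization controls, added in equal amounts to each sample, had an SD of at most 0.22 between arrays. This SD is the only measure of technical spread. It leaves out variation from the extraction and labelling of worm RNA, and there is no biological replicate. It is 1 SD, the same for bright and dim signals, so a value inside or beyond it is described and not tested. The probe set of *kgb-1* itself gave 129 and 314 in wild-type animals without and with copper and 179.5 and 229 in the mutants, and its place relative to the *km21* lesion is not given in the sources used here, so it does not check the genotype. All 13 probe sets for adult stage (vitellogenins, sperm and oocyte genes, the adult collagen *col-19*) were at 100 or more on every array, and all 4 for dauer or arrested larvae (*col-2*, *daf-28*, *ins-37*, *cut-1*) were below 100 on every array.

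NOAH-1 and NOAH-2 are transmembrane proteins with a zona pellucida (ZP) domain that build the apical sheath over the epidermis. The unsuffixed probe set 174240_at of *noah-1* gave 1563 in wild-type animals in water, 1532 in wild-type animals in copper, 1919 in mutants in water and 2114 in mutants in copper. Both mutant signals were above both wild-type signals, by 1.23-fold without copper and 1.38-fold with it. On the second probe set, 183775_at, *noah-1* gave 458 and 429 in wild type and 576 and 800.1 in the mutants, in water and copper in that order here and below. The order of the 4 arrays was the same on both probe sets: copper-treated mutants first, untreated mutants next, and both wild-type arrays below. Between the wild-type arrays the log2 ratios were -0.03 and -0.09, inside the technical spread.

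*noah-2* had the same 2 mutant arrays on top, with signals of 408 and 443 in wild type and 594 and 807 in the mutants. The ratio of mutant to wild type was 1.46 without copper and 1.82 with copper. Its wild-type arrays, 0.12 apart on the log2 scale, did not differ beyond the technical spread, while the mutant arrays were 0.44 apart. Its only probe set has a suffix for shared sequence.

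FBN-1 is a fibrillin-like protein that also carries a ZP domain and belongs to the same sheath. Probe set 174252_at of *fbn-1* gave 92.8 and 97.7 in wild-type animals, both below the signal minimum, and 187 and 141.8 in the mutants. The mutant signals were at least 1.87-fold higher without copper and at least 1.42-fold higher with copper, each taken against 100. Here the untreated mutants were on top, not the copper-treated ones. The other probe set, 181745_at, stayed below 100 on all arrays, at 73.4 and 69.5 against 94.0 and 76.8, with the mutants again on top.

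MLT-11 is a secreted protein with many Kunitz-type protease inhibitor domains. Of its 4 probe sets 2 were measured. Probe set 194187_x_at gave 123 and 110.2 in wild type and 206 and 218 in the mutants, ratios of 1.67 and 1.98. Probe set 171847_s_at gave 205 and 123 in wild type and 216 and 308 in the mutants. On it the untreated strains were 0.08 apart on the log2 scale and the copper-treated strains 1.33, that is 2.51-fold, the one mutant to wild-type ratio over 2 among the 10 in which both signals reached 100. The deposited signals of *fbn-1* without copper were also over 2-fold apart, with the dimmer below 100. Counted in this way, with only the brighter signal required to reach 100, 1 of the 10 was over 2 with copper and 1 without, and none was under 0.5. Over all probe sets the shares were 1.16% over 2 and 1.4% under 0.5 with copper, and 0.577% and 0.897% without. The 2 probe sets thus give the mutants the higher signal but differ on how much of the gap was present without copper. Of the remaining probe sets, 194086_at had 27.4 and 37.2 against 82.9 and 70.3, and 179352_at did not exceed 6.05 on any array.

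NAS-37 is an astacin metalloprotease needed to shed the old cuticle. Its signals were 164 and 130.5 in wild type and 197 and 164 in the mutants, so that the mutants were 1.20-fold and 1.26-fold higher. The lower mutant signal and the higher wild-type signal were almost equal (164.03 and 163.82), and the arrays can hardly be said to separate.

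MLT-7 is a heme peroxidase that acts in building the cuticle. Its measured probe set, 188716_s_at, gave 166 and 103 in wild type and 179 and 177 in the mutants. Copper-treated wild-type animals stood below the other 3, which lay within 0.10 of each other on the log2 scale. The dim probe set 172950_at, with 31.7 and 9.03 against 28.1 and 27.2, also had its lowest signal in copper-treated wild-type animals.

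*mlt-10* encodes a proline-rich secreted protein, and its promoter is a standard reporter of the molt cycle. Probe set 181793_at gave 85.1 and 122 in wild type and 58.3 and 124 in the mutants. Both copper arrays were above 100 and both water arrays below it, so the fold between them is given only as at least 1.22-fold and at least 1.24-fold. The second probe set did not bear this order out: 171945_x_at was below 100 throughout, with 54.7 and 43.2 in wild type and 42.8 and 14.2 in the mutants, lower with copper in both. On it both mutant signals were below both wild-type signals. *mlt-8*, found through the molting defects that follow its loss, was the flattest of the 10. It had 186 and 196 in wild type and 196 and 184 in the mutants, a range of 0.09 on the log2 scale over the 4 arrays, inside the technical spread.

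**Figure D1:**
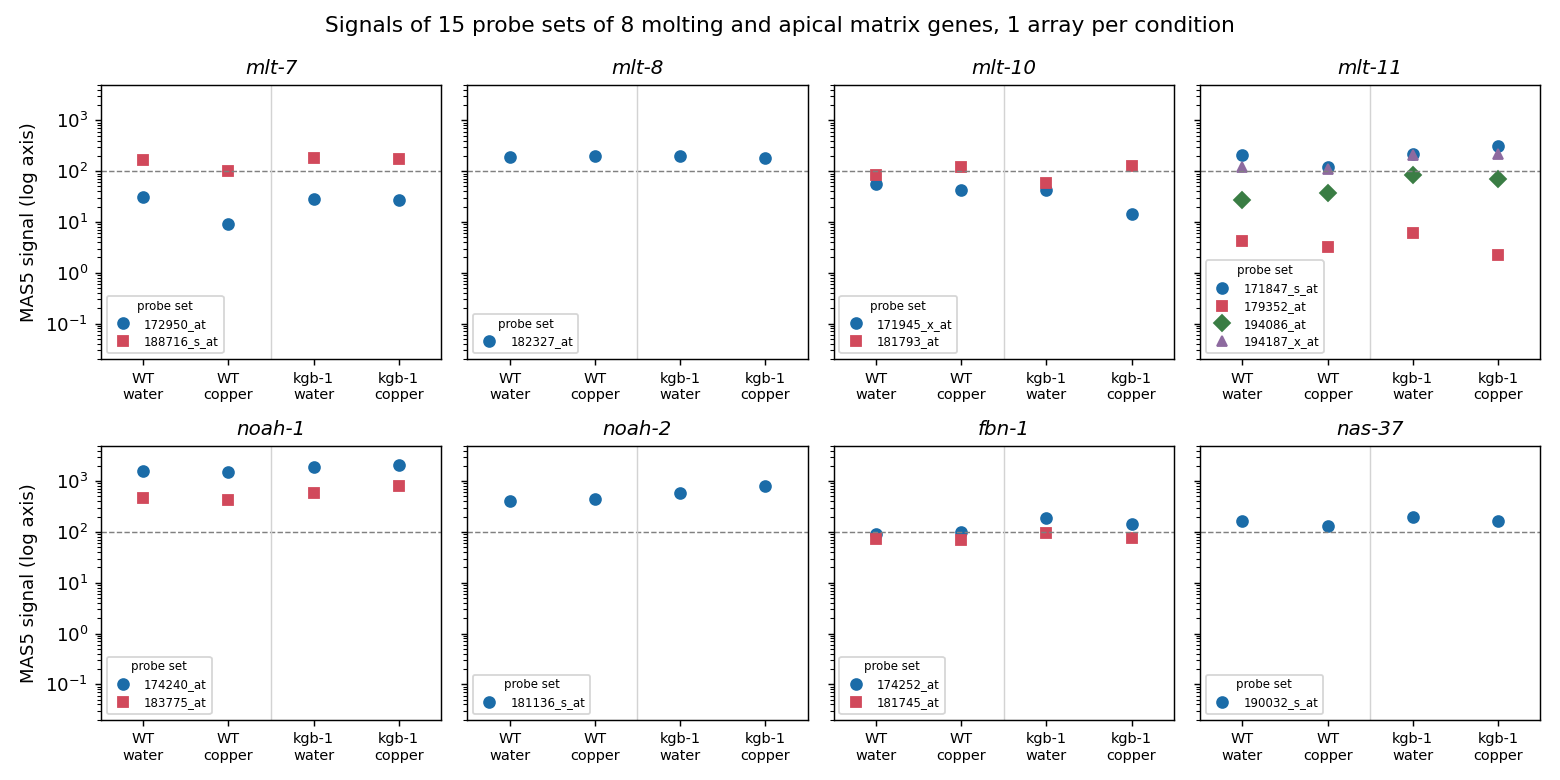
MAS5 signal (log axis) of each of the 15 probe sets in the 4 conditions, 1 panel per gene, 1 point per array, with no error because each condition has 1 array. The dashed line is the signal minimum of 100. The mutant points of *noah-1*, *noah-2*, *fbn-1* and the 2 brighter probe sets of *mlt-11* lie above the wild-type points, and *mlt-8* is level.

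The first comparison asked how the strains differ. Both mutant signals were above both wild-type signals on 8 of the 10 measured probe sets, from 6 of the 8 genes, against 18.9% of all 11266 probe sets tested. On none of the 10 were both mutant signals below both wild-type signals, against 16.7% of all. The exceptions were *mlt-8* and *mlt-10*, whose strains overlapped. The dim probe set of *mlt-10*, not among the 10, had both mutant signals below both wild-type signals. *fbn-1* passed the signal minimum only through the mutants and so had to be higher there, and among probe sets that reached 100 in both strains the count was 7 of 9, against 18.4% of all. On 3 of the 8, those of *mlt-7* and *nas-37* and 171847_s_at of *mlt-11*, the lowest mutant signal was above the highest wild-type signal by only 0.09, 0.0019 and 0.08 on the log2 scale, inside the technical spread. On the other 5 the gap was 0.30 to 0.74, beyond that spread of 1 SD, as on 4.47% of all. The 5 include *fbn-1*, which had to be higher in the mutants, and both probe sets of *noah-1*. That 4.47% was not limited to probe sets that reached 100 in both strains. Over the 10 probe sets, *fbn-1* included, the median log2 ratio of mutant to wild type was 0.28 without copper and 0.66 with it. The medians over all tested were 0.015 and -0.0031. Probe sets of 1 gene share their transcript, and all share the same 4 arrays, so the count is a description of these arrays. The 8 genes were also chosen with earlier results of these data known, so the count is not independent evidence. The order held on 6 of 10 with quantile normalization, where *mlt-7* and *nas-37* overlapped, and on 7 of 10 with arrays scaled to equal medians, where *nas-37* overlapped (17.4% and 16.4% of all probe sets).

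No single gene passed the test of this difference. With both factors in a limma fit, and p adjusted by Benjamini-Hochberg over the whole set of 11266, none of the 10 was called higher or lower in the mutants, where 0.0533% of all were called higher and 0.284% lower. At an unadjusted p under 0.05, 5 of the 10 were higher in the mutants and none lower, against 5.52% and 5.25% of all. The 5 were *noah-2*, both probe sets of *noah-1*, *fbn-1* and probe set 194187_x_at of *mlt-11*, and without *fbn-1*, for the reason given, 4 of 9 remain (5.46% of all that reached 100 in both strains). The nearest to the threshold was *noah-2*, with a log2 difference of 0.70 ± 0.13 (SE, adjusted p = 0.141 from limma, higher in the mutants with and without copper). *mlt-11* had 0.86 ± 0.20 on 194187_x_at (adjusted p = 0.201 from limma) and 0.70 ± 0.30 on 171847_s_at (adjusted p = 0.478). For *noah-1* the differences were 0.61 ± 0.16 on 183775_at (adjusted p = 0.263) and 0.38 ± 0.11 on 174240_at (adjusted p = 0.282 from limma). That of *fbn-1*, 0.77 ± 0.24 on the deposited signals, became 0.70 ± 0.16 with its wild-type signals raised to 100 (adjusted p = 0.340 and 0.262 from limma). The values for *mlt-7*, *nas-37*, *mlt-10* and *mlt-8* were 0.44 ± 0.24, 0.30 ± 0.19, -0.26 ± 0.30 and -0.01 ± 0.17. The error rests on 1 residual degree of freedom of the probe set itself and 5.19 borrowed from the others, so it is mostly that of other probe sets of like signal, and culture and mutation cannot be told apart.

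**Figure D2:**
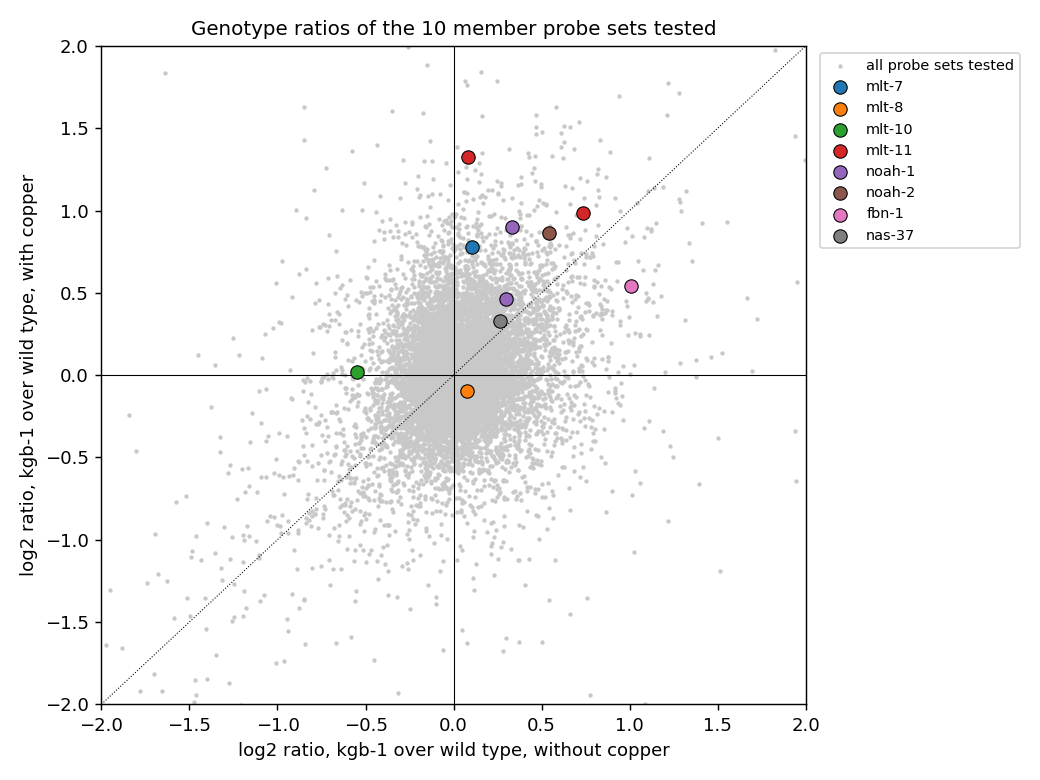
Log2 ratio of *kgb-1* mutants over wild type without copper (x axis) and with copper (y axis), for the 10 measured probe sets (coloured by gene) and all 11266 tested (grey), 1 array per condition. On the dotted line both ratios are equal. Of the 10 points, 8 lie above 0 on both axes, and *mlt-8* and *mlt-10* do not. Grey points beyond the axes are not drawn.

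Signs of RNA quality and of stage were read on the same arrays. For the catalase control, the 3' signal was 4.61 and 4.62 times the 5' signal in wild type and 3.63 and 2.90 times in the mutants, while this ratio was 0.912 to 1.08 for *Gapdh* and 1.70 to 1.85 for actin on the 4 arrays. Of the 13 adult stage probe sets, both mutant signals were below both wild-type signals on 5 (38.5%) and above on 2. The shares of all probe sets tested were 16.7% below and 18.9% above. The summed signal of the 13, most of it from vitellogenins, was 186434 and 205318 in wild type and 173474 and 192792 in the mutants. The 3 for major sperm proteins were among the 5, such as *msp-19* with 4092 and 3926 against 3001 and 2963 (adjusted p = 0.169 from limma). Eggs inside the mother build apical matrix too, and 11 of 13 embryo markers are on the array. Their 13 probe sets, 6 of them below 100 on every array, summed to 8915 and 8534 in wild type and 8961 and 9445 in the mutants. On 2 of the 7 measured ones both mutant signals were above both wild-type signals, and on 1 below. Those above were *pes-10*, an early embryonic gene, with 309 and 299 against 385 and 393, and *elt-7*, a GATA factor of the gut, with 358 and 341 against 421 and 544 (adjusted p = 0.413 and 0.383 from limma). Both were higher in the mutants at an unadjusted p under 0.05 from limma, and none was lower (5.52% and 5.25% of all). Most of the sum is *pal-1*, and the 6 dim probe sets are those of *ceh-51*, *tbx-37*, *tbx-38*, *med-1*, *end-3* and *hlh-1*. The part of these values in the result was not tested, and in whole animals fewer cells of a type and less RNA per cell cannot be told apart.

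The second comparison asked what copper did. None of the 10 probe sets was called by limma for copper after Benjamini-Hochberg adjustment, against 1.18% of all called higher and 0.346% called lower, and 1 of 10, *mlt-10*, was higher at an unadjusted p under 0.05 and none was lower at that level (6.98% and 5.8% of all). Its log2 change was 0.81 ± 0.30 on the deposited signals (adjusted p = 0.352 from limma, higher in both strains) and 0.30 ± 0.13 with its water signals raised to 100 (adjusted p = 0.445). It was also the 1 probe set of the 10 with both copper signals above both water signals (19.2% of all), and on none were both below (20.7%). It passed the signal minimum only through the copper arrays and so had to be higher there, and of the 9 that reached 100 in both treatments none had this order (18.4% of all) or an unadjusted p under 0.05 in that direction (6.73%). The shared change was 0.28 ± 0.13 for *noah-2* (adjusted p = 0.459), 0.06 ± 0.11 and 0.19 ± 0.16 for *noah-1*, -0.35 ± 0.24 for *mlt-7* and -0.30 ± 0.19 for *nas-37*, none of which passed (limma). No ratio reached 2-fold in wild-type animals, where 2.04% of all were over 2 and 1.05% under 0.5. In the mutants the deposited signals of *mlt-10* were over 2-fold apart, 58.3 and 124, with the dimmer below 100 (1.46% of all over 2, 0.728% under 0.5). The median log2 ratio of copper to water over the 10 was -0.06 in wild type and 0.11 in the mutants, against 0.012 and -0.0063 over all.

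Copper ratios pointed in opposite directions in the 2 strains on 6 of the 10 probe sets, against 40.8% of all. On both measured probe sets of *noah-1* and of *mlt-11* the ratio was below 1 in wild type and above 1 in the mutants, and on those of *fbn-1* and *mlt-8* it was the reverse. Both ratios were beyond the technical spread only on 171847_s_at of *mlt-11*. On the others the wild-type ratio lay inside it, so its direction is not resolved. The widest gap was that of *mlt-11* on 171847_s_at, which was 1.66-fold lower with copper in wild type and 1.43-fold higher in the mutants. On the other measured probe set of *mlt-11* the values were 1.12-fold lower and 1.06-fold higher. With 1 array per condition the difference between these ratios has no test. In the limma fits above, that difference is what serves as the probe set's own error. The same 4 signals make the strain gap and the copper ratios, so that a wider strain gap with copper and opposite copper ratios are 1 observation.

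**Figure D3:**
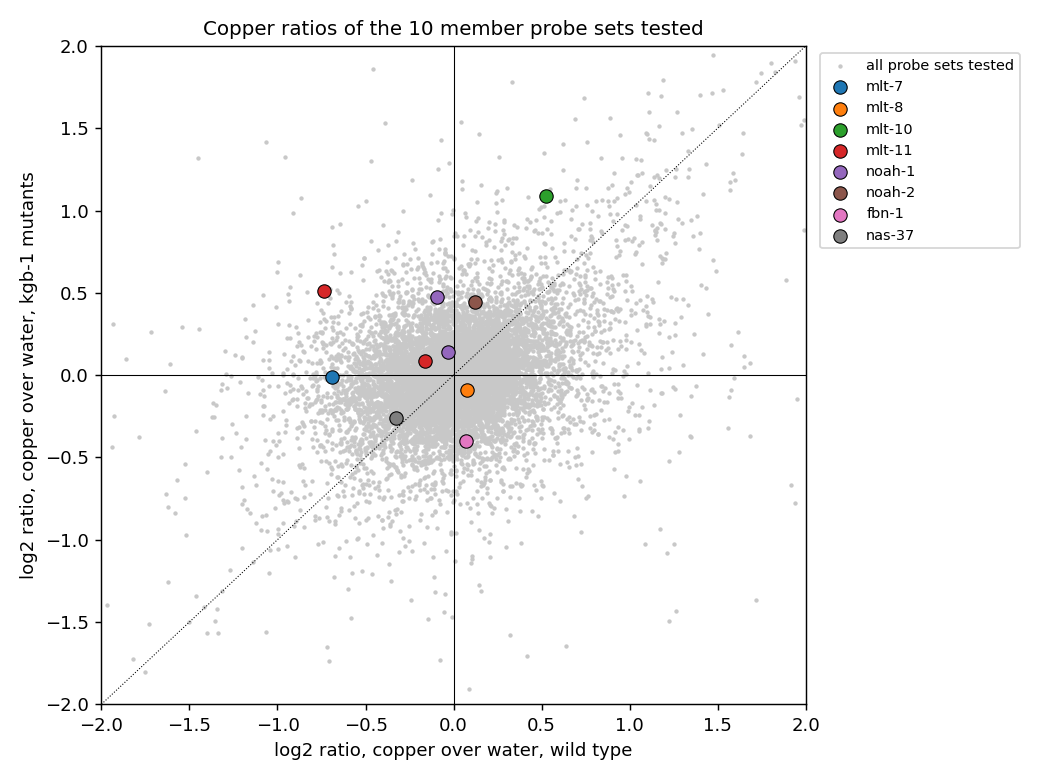
Log2 ratio of copper over water in wild-type animals (x axis) and in *kgb-1* mutants (y axis), for the 10 measured probe sets (coloured by gene) and all 11266 tested (grey), 1 array per condition. *mlt-10* is the point in the upper right and *mlt-11* (171847_s_at) the one farthest to the left, at -0.73 and 0.51. Grey points beyond the axes are not drawn.

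The probe sets whose course over the 4 arrays was nearest to that of *mlt-11* on 171847_s_at belonged to *sox-2*, *cct-3* and *rbr-2*, at Euclidean distances of 0.09, 0.11 and 0.13 between centred log2 signals. For instance, *sox-2* gave 351 and 205 in wild type and 357 and 483 in the mutants. Nearest to *mlt-10* on 181793_at were *sta-2*, *F59B10.5* and *smz-1*, at 0.09, 0.10 and 0.20. The likeness rests on 4 arrays and was sought over 10733 probe sets.

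Other genes of the epidermal surface and its attachments were read from lists, which were also chosen with earlier results of these data known. Of 25 measured probe sets for further genes with ZP domains, of the apical matrix or of epidermal attachment, the last not part of the sheath, both mutant signals were above both wild-type signals on 13 (52.0%) and below on 3, with median log2 ratios of 0.34 without copper and 0.30 with it. Of the 20 that reached 100 in both strains, 10 had the mutants above (18.4% of all such probe sets). *sym-1*, a leucine-rich repeat protein of the apical matrix, gave 286 and 294 in wild type and 562 and 516 in the mutants (log2 difference 0.89, adjusted p = 0.0701 from limma). *cutl-20*, a cuticlin-like ZP gene, gave 143 and 148 against 211 and 238, and *cutl-2*, of the same family, 32.2 and 32.5 against 114 and 128, at least 1.14-fold and at least 1.28-fold. *let-805*, the gene for myotactin, which anchors the epidermis to muscle, gave 598 and 396 against 808 and 587, so that its strains overlapped. Further probe sets of *sym-1*, *cutl-20* and *let-805* were below 100 on every array, and not all of them had the mutants above. None of the 25 passed the test for genotype or for copper. At an unadjusted p under 0.05 from limma, 7 were higher and 1 lower in the mutants (5.52% and 5.25% of all). The 7 include *cutl-2*, which passed the signal minimum only through the mutants and so had to be higher there. Of the 20 that reached 100 in both strains, 6 were higher (5.46% of all such). The 1 lower was *cut-2*, with 641 and 679 against 403 and 579. For copper none was higher and 2 were lower (6.98% and 5.8% of all).

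Genes that carry out or time the molt were counted in the same way, and their difference from the 10 was not tested. Of 26 measured probe sets for molting enzymes and trafficking, such as those of *lrp-1*, *bli-4*, *nekl-2* and *mlt-3*, the mutants were above wild type on 4 (15.4%) and below on 4 (15.4%), with medians of -0.03 and -0.09. Many of the 26 belong to *bli-4* alone. A further 21 of the 47 probe sets in this list were below 100 on every array, with all those of *mlt-2*, *mlt-4*, *mlt-9* and *nas-36* among them. The counts thus do not cover the whole list. *imp-2*, which encodes an intramembrane protease, gave 5642 and 1392 in wild type and 5090 and 5129 in the mutants on 1 probe set, but 2948 and 3569 against 2856 and 3198 on another. Of 20 for regulators of the molt cycle and epidermis, the mutants were above on 6 (30.0%) and below on none. Over all probe sets tested the shares above and below were 18.9% and 16.7%. *nhr-23*, a ROR-type nuclear receptor that drives molting, gave 533 and 280.4 in wild type and 453 and 530.4 in the mutants. Its lowest signal was in copper-treated wild-type animals. This held for the measured probe sets of *mlt-7*, *mlt-11*, *noah-1* and *nas-37*, but not for those of *mlt-8*, *mlt-10*, *noah-2* and *fbn-1*. For *noah-1* the log2 copper ratios in wild type were only -0.03 and -0.09, and for *mlt-11* on 194187_x_at -0.16. These lay inside the technical spread, so the lowest array is not resolved there. The share of all probe sets lowest on that array was not counted, and a link between *nhr-23* and these genes was not tested. The other probe set of *nhr-23*, below 100 throughout, was lowest in the mutants, with 59.2 and 62.1 against 36.5 and 40.4. *elt-3*, an epidermal GATA factor, gave 411 and 137 against 517 and 289, lower with copper in both strains (log2 change -1.21, adjusted p = 0.0529 from limma), and its second probe set gave 342 and 119 against 329 and 196. *hbl-1*, a zinc finger gene of developmental timing, gave 275 and 273 against 485 and 636 (log2 difference 1.02, adjusted p = 0.0701). None of the 26 and none of the 20 passed either test (limma). At an unadjusted p under 0.05 from limma, none and 3 were higher in the mutants (5.52% of all). At that level 1 and none were lower (5.25% of all). The counts for these lists were not limited to probe sets that reached 100 in both strains.

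The furrow collagens, which peak at each molt like *mlt-10*, were dim, with 3 of 6 probe sets measured. *dpy-7* gave 123 and 138 in wild type and 188 and 159 in the mutants, the 1 of the 3 in which the strains did not overlap. Of 10 measured probe sets for epidermal genes, some also in the lists above, mutants were above on 4 (40.0%) and below on 1. Over all tested the shares were 18.9% and 16.7%. Those above include the hedgehog-related gene *wrt-10*, with 457 and 444 against 606 and 754. The 1 below was *rol-6*, a cuticle collagen, with 203 and 260 against 113 and 101. One of the 10 passed a test, the collagen *sqt-3* on a suffixed probe set, which rose with copper (log2 change 0.42, adjusted p = 0.0214 from limma), a call that is lost when all signals below 100 are raised to 100 (adjusted p = 0.0647). Its unsuffixed probe set gave a change of -0.07 (adjusted p = 0.843).

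**Figure D4:**
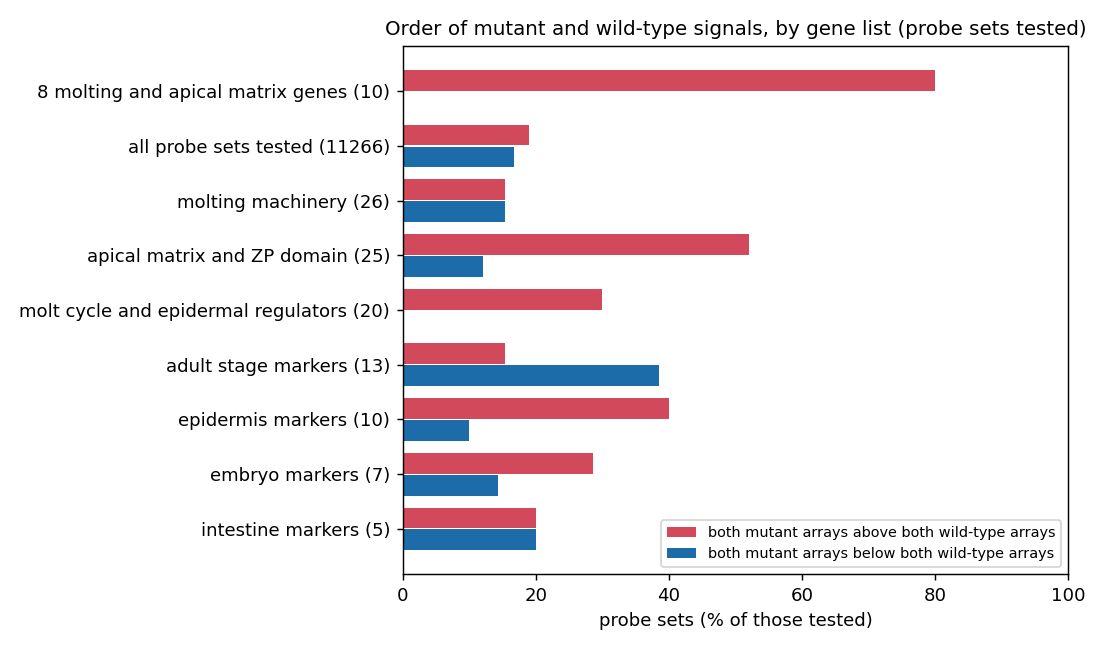
Share of the measured probe sets (number in brackets) in each gene list on which both mutant arrays lie above (red) or below (blue) both wild-type arrays. The 8 molting and apical matrix genes reach 80.0% above, the further ZP domain, apical matrix and attachment genes 52.0%, and all probe sets tested 18.9%. The genes and lists were chosen with earlier results of these data known.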

How the data were processed

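RNA was labelled with a 3' IVT kit and hybridized once by a service company. The authors deposited intensity values, MAS5 signals on a linear scale, with every array scaled to a common trimmed mean (500.1); the MAS5 version is not given in the sources used here. Signals were used as deposited, and 77 array controls were left out of the tests. Probe sets were named by the platform's gene table and by RefSeq for WBcel235, 20766 of 22625 with 1 symbol. Ratios were called past 2-fold with the brighter signal at least 100, and folds with the dimmer signal below 100 are lower bounds taken against 100. Effects of copper and genotype were fitted together by limma 3.58.1 (R 4.3.3) to log2 signals of 11266 probe sets, with eBayes set to follow the trend in variance and a Benjamini-Hochberg threshold of 0.05, leaving 1 residual degree of freedom and 5.19 from the prior. The interaction cannot be tested with 1 array per condition. Medians and plots used Python 3.11.15, pandas 2.3.3 and matplotlib 3.10.9. The number of arrays limits the precision, and the p-values measure no spread between replicates. Their error comes from the difference in copper ratio between the 2 strains and, through the prior, from other probe sets. The 8 genes and all lists were chosen with earlier results of these data known. Named genes are all members, up to 4 of each list by size of change where a call was made, the 3 nearest profiles of the 2 members with the widest range, and others chosen after their values were seen. Alternatives were signal minima of 50, 200 or none, quantile normalization, equal medians, an offset of 32, signals raised to 100, no second factor, each array left out and unsuffixed probe sets only. Their effect on the count of non-overlapping strains was examined after seeing the data.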

Additional observations from a re-analysis of the deposited data

Results flagged for a closer look

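Copper ratios pointed in opposite directions in the 2 strains on 6 of the 10 measured probe sets. The log2 copper ratio in the mutants minus that in wild-type animals was 1.25 for *mlt-11* on 171847_s_at (-0.73 in wild-type animals, 0.51 in the mutants) and 0.57 for *noah-1* on 183775_at (-0.09 and 0.47). It was 0.25 for *mlt-11* on 194187_x_at, 0.17 for *noah-1* on 174240_at, -0.47 for *fbn-1* (0.07 and -0.40) and -0.17 for *mlt-8*. The difference was not tested, because each condition has 1 array. Opposite directions were seen on 40.8% of all probe sets tested. Except on 171847_s_at of *mlt-11*, the wild-type ratio lay inside the technical spread of the hybridization controls, so its direction is not resolved.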

How the results depend on the processing

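No member was called for copper or for genotype under any alternative; the lowest adjusted p (limma) was 0.0629, for genotype with equal medians. No paired analysis was possible because every group has only replicate number 1. Leaving out an array removes the second factor from the fit, and the median log2 change with copper over the 10 then ranged from -0.35 (without copper-treated mutants) to 0.37 (without copper-treated wild-type animals), so its direction rests on single arrays; that between genotypes ranged from 0.35 to 0.65. At a minimum of 200, with 5 probe sets left, the median was 0.44 for copper in the mutants and 0.90 for genotype with copper. Counts past 2-fold are small and moved with dim signals. Copper in wild-type animals gave 0, and 1 with no minimum. Copper in the mutants gave 1, against 0 at a minimum of 200, with an offset or with signals raised, and 3 with no minimum. Genotype without copper gave 1 (*fbn-1*), against 2 at a minimum of 50 or none and 0 at 200, with quantile normalization, equal medians, an offset or signals raised. Genotype with copper gave 1, against 3 with no minimum, 2 with equal medians and 0 for unsuffixed probe sets. The 8 of 10 with both mutant arrays on top became 6 with quantile normalization, 7 with equal medians, 3 of 5 for unsuffixed probe sets, 7 of 9 where 100 was reached in both strains and 10 of 15 with no minimum, and was 8 to 9 when any 1 array was left out (against at least 33.1% of all probe sets in each case).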
